A study of Mus musculus with 6 samples.

Results

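The genes described here encode the translation initiation factors (Eif genes) and elongation factors (Eef genes) of mouse synaptoneurosomes, a fraction of brain homogenate rich in resealed synaptic endings. Members were chosen by name, as every gene whose symbol begins with Eif or Eef followed by a digit. The rule found 64 of the 21958 protein-coding genes in the count table, 55 Eif and 9 Eef genes, and used no measured value. Synaptoneurosomes came from the hippocampus and adjacent cortex of FVB mice aged 6 to 8 weeks. The polyribosome group (3 libraries) was stimulated through the NMDA receptor with 50 µM NMDA and 10 µM glutamate for 30 s, followed by the antagonist APV at 120 µM during an incubation of 20 min, and its RNA came from pooled polyribosomal fractions of a sucrose gradient. The total group (3 libraries) was total RNA of unstimulated synaptoneurosomes. Stimulation and fraction changed together between the groups. In the methods, unstimulated controls stayed on ice with cycloheximide, while stimulated samples were warmed and incubated. The parts of all these in any difference cannot be told apart. In bulk RNA of this kind, fewer terminals or cells of a type and less RNA in each cannot be told apart either. Each preparation pooled the tissue of several mice and was divided into aliquots, and the libraries of the same number in both groups are called a preparation below.

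Initiation factors load the initiator tRNA onto the small ribosomal subunit, recruit the capped mRNA, find the start codon and join the large subunit. Elongation factors then deliver aminoacyl-tRNAs and move the ribosome along the mRNA. At synapses, mRNAs held in dendrites can be translated locally after receptor activation, and eIF4E availability, eIF2 phosphorylation and eEF2 phosphorylation are classic control points. Many mRNAs of the translation apparatus carry a 5′ terminal oligopyrimidine (TOP) tract, a run of C and T at the very start of the transcript that places them under growth-dependent control. Polyribosomal abundance of a factor mRNA describes how much of that mRNA was recovered in the fraction, not the amount or activity of the factor protein.

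Total counts ranged from 5294482 to 7361580 in the polyribosome libraries and from 1044955 to 3738022 in the total libraries. Total RNA replicate 3 was the shallowest, and every polyribosome library was deeper than every total library. The libraries of preparation 3 stood apart at the genes of the Y chromosome. Eif2s3y, the Y-linked gene of the eIF2 gamma subunit, had 55 counts in polyribosome replicate 3 and 26 in total replicate 3, and 0 counts in the other 4 libraries. Ddx3y (224 and 51 counts), Kdm5d (80 and 36) and Uty (50 and 36) showed the same split, with 1 count of Ddx3y in total replicate 2 as the exception. Erdr1, listed on the Y chromosome but lying in the pseudoautosomal region shared with the X chromosome, had counts in all libraries, from 5 to 61. The methods name male mice, whereas preparations 1 and 2 held next to no counts of Eif2s3y, Ddx3y, Kdm5d and Uty, and the sample labels give no sex. Results are therefore also given for preparations 1 and 2 alone. The marker lists showed a mixed tissue, and every marker passed the count filter. Levels are in CPM, counts scaled to library size with TMM factors, here and below. Neuron and synapse markers (12 genes) summed to 14495 to 17975 CPM on polyribosomes against 13167 to 15062 CPM in total RNA. Of these, 9 had positive log2 fold changes, with a median of 0.10. Astrocyte markers were positive at 9 of 9 genes (median 0.54, summed CPM 40872 to 43185 on polyribosomes against 32274 to 36863 in total RNA), oligodendrocyte markers at 7 of 7 (0.43, 10964 to 14815 against 7902 to 11060), microglia markers at 7 of 7 (0.36, 712 to 844 against 476 to 643) and endothelial markers at 4 of 5 (0.24, 231 to 427 against 235 to 259). The summed levels of the astrocyte and microglia markers did not overlap between the groups, and the part of these cells in the values of the factor mRNAs was not tested.

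The starts of the members are shown because many factor mRNAs belong to the TOP class. In the RefSeq table of gene starts (GRCm38.p6), 50 of the 64 members had an entry. Each line gives 30 bases 5′ to 3′ from the annotated start, on the strand of the gene. Capitals mark the first run of a C followed by at least 4 further C or T, and later runs stay in lower case. Eif3f, Eef2 and Eef1a1 are members of a list of known TOP mRNAs, and Eef1a2, Eif3k and Eif5a2 were called in the fit with the preparation as a block, described below.
Eif3f, chr7:108934415-108934444, plus strand: CTCTCTTTCTCggcaagatggcttctccgg
Eef2, chr10:81176631-81176660, plus strand: gttgacgtcagcggtCTCTTCCgccgcagc
Eef1a1, chr9:78481695-78481724, minus strand: ttcccgagggtgggggagaacggtatataa
Eef1a2, chr2:181156986-181157015, minus strand: gttctcgctcactggttCTCTCCCTCgctc
Eif3k, chr7:28981859-28981888, minus strand: ggtgctgaaagcgCCTTTCCCTTTgccttc
Eif5a2, chr3:28781277-28781306, plus strand: ggcgggccggggcggggagccgggtgtggg
The first run stood at the very first base in Eif3f and further in for Eef2, Eef1a2 and Eif3k. The windows of Eif3f and Eif3k each held a later run in lower case as well. No such run lay in the windows shown for Eef1a1 and Eif5a2. The first listed window of each gene is shown. The window of Eef1a1 lies inside the gene as counted, whose 5′ end is at 78489151. The annotated start need not be the start used in these cells, so a window without a run does not show that the mRNA lacks the tract. Of the TOP list, 5 members had an entry and 3 of these had a tract in a window. The motif was common. It occurred in 33.8% of the 32851 windows of the whole table and in 40.0% of the 65 windows of the members, searched on the gene strand.

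The factor mRNAs together took 0.787% ± 0.038 (SD, n = 3) of all polyribosome counts against 0.754% ± 0.016 (SD, n = 3) of the total RNA counts. The share was the higher on polyribosomes within each preparation, at 0.781%, 0.751% and 0.827% against 0.767%, 0.737% and 0.760% in preparations 1 to 3. The summed level of the Eef genes averaged 5079 CPM on polyribosomes and 4133 CPM in total RNA. That of the Eif genes averaged 3105 and 3167 CPM, and both sums overlapped between the groups. Eef1a1, Eef2 and Eef1a2 together took 0.456% ± 0.068 (SD, n = 3) of the polyribosome counts and 0.393% ± 0.043 (SD, n = 3) of the total RNA counts. The eEF1B exchange factor genes summed to 278 CPM on polyribosomes and 285 CPM in total RNA. The higher mean share was thus that of Eef1a1, Eef2 and Eef1a2 and not of all Eef genes or the whole family. By level per transcript length, Eef1a1, Eef2 and Eef1a2 were the highest members in both groups, in that order, and these elongation factor mRNAs held between 48.4% and 64.6% of all member counts in a library. Eef1a1 averaged 1093 CPM per kb on polyribosomes and 946 in total RNA. Eef2 averaged 637 and 501 CPM per kb, and Eef1a2 averaged 399 and 271. The next gene in total RNA was Eif4g2, at 86.7 CPM per kb, and the lowest of the tested members was Eef2kmt, at 1.92. The order of the members was much alike in both groups, with a Pearson r of 0.98 between the log2 levels across genes, which are not independent replicates.

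**Figure D1:**
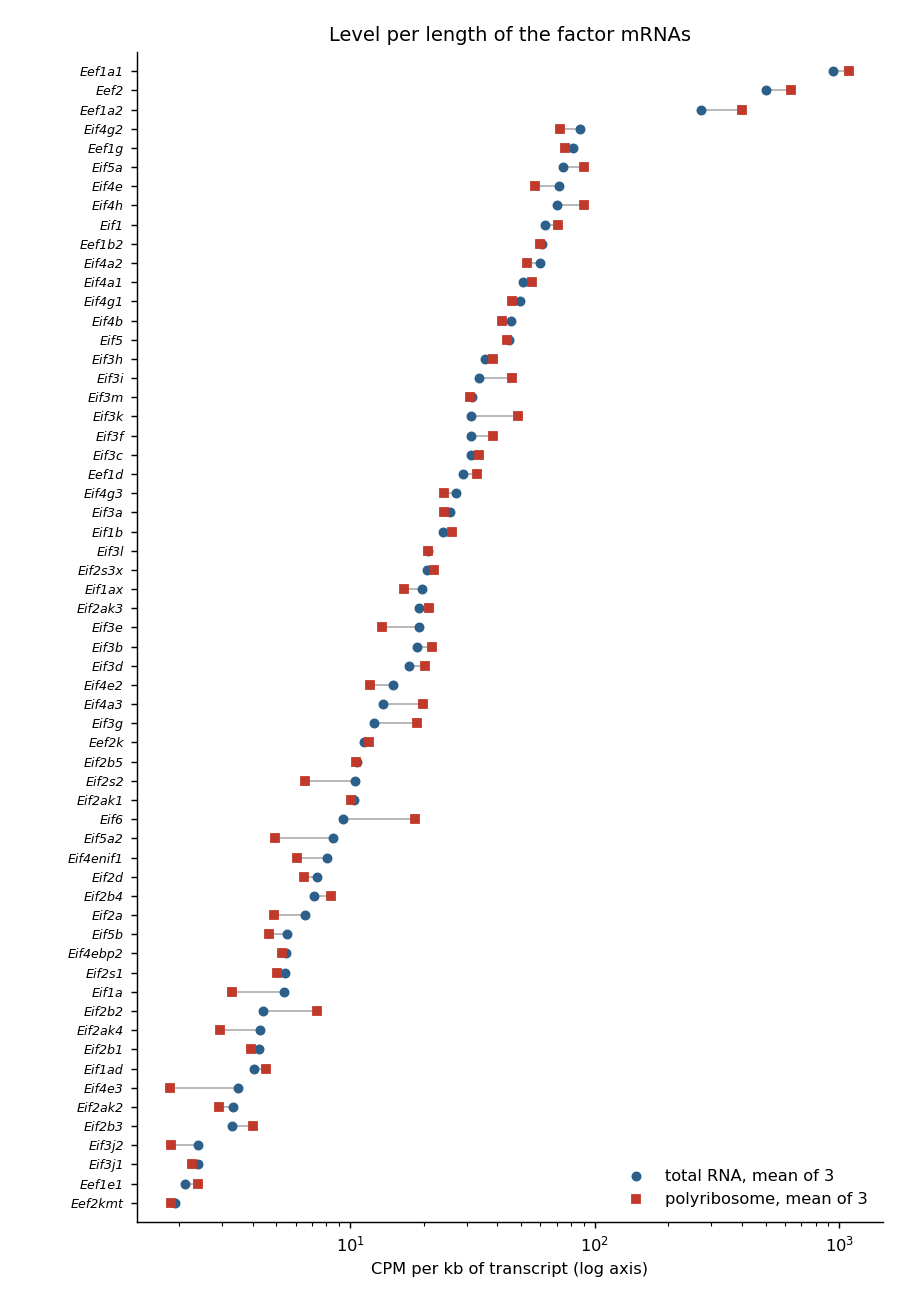
Level of the 60 tested factor mRNAs in CPM per kb of transcript (log axis), as the mean of 3 total RNA libraries (circles) and 3 polyribosome libraries (squares), ordered by the total RNA level. Eef1a1, Eef2 and Eef1a2 lie above all others in both groups, and the 2 symbols of most genes nearly coincide.

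The comparison asks which factor mRNAs were over- or under-represented on polyribosomes of stimulated synaptoneurosomes relative to total synaptoneurosomal RNA. Of the 64 members, 60 passed the filter on low counts and were tested with all 12255 genes. No member passed the threshold of 0.01 on the adjusted p of edgeR's quasi-likelihood test in either direction, where 0.71% of all genes were called higher and 2.36% lower. At an unadjusted p under 0.05, 8 members were higher and 7 lower (13.3% and 11.7% of the members, against 15.4% and 17.1% of all genes), and DESeq2 called 1 of the 55 members to which it gave an adjusted p, Eif6, higher at the same threshold and none lower, where it called 3.31% of all genes higher and 3.83% lower. The fit with the preparation as a block called 4 members higher (Eif6, Eif2b2, Eef1a2 and Eif3k) and 5 lower (Eif4e3, Eif5a2, Eif1a, Eif2s2 and Eif3e). These were 6.67% and 8.33% of the members, below the 11.8% and 13.2% of all genes that this fit called. All 3 polyribosome libraries lay above all 3 total libraries at 12 members (20%, against 17.4% of all genes) and below them at 6 members (10%, against 18.9%). Log2 fold changes, positive where the mRNA was more abundant on polyribosomes, were positive for 30 members and negative for 30, with a median of -0.01 against 0.00 for all genes. Of the 60, 48 lay within 0.5 of zero, and the standard errors ran from 0.16 to 0.35. In preparations 1 and 2 alone, where 61 members were tested, 1 (Eif6) was called higher and none lower without the block, against 3.61% and 5.25% of all genes. With the block 4 were called in each direction (6.56% each), against 11.7% and 12.8% of all genes. Eif6, Eif2b2, Eef1a2, Eif1a, Eif3e and Eif5a2 kept their calls there, Eef2 and Eif4a2 gained one, and Eif3k, Eif2s2 and Eif4e3 lost theirs. With the block, preparations 1 and 3 alone called Eif6 higher and Eif5a2 lower (4.19% and 5.52% of all genes), and preparations 2 and 3 alone called Eif6 higher and Eif2s2 and Eif5a2 lower (5.15% and 7.47%). Scaling by total counts alone moved the median of all genes to -0.11 and that of the members to -0.12.

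**Figure D2:**
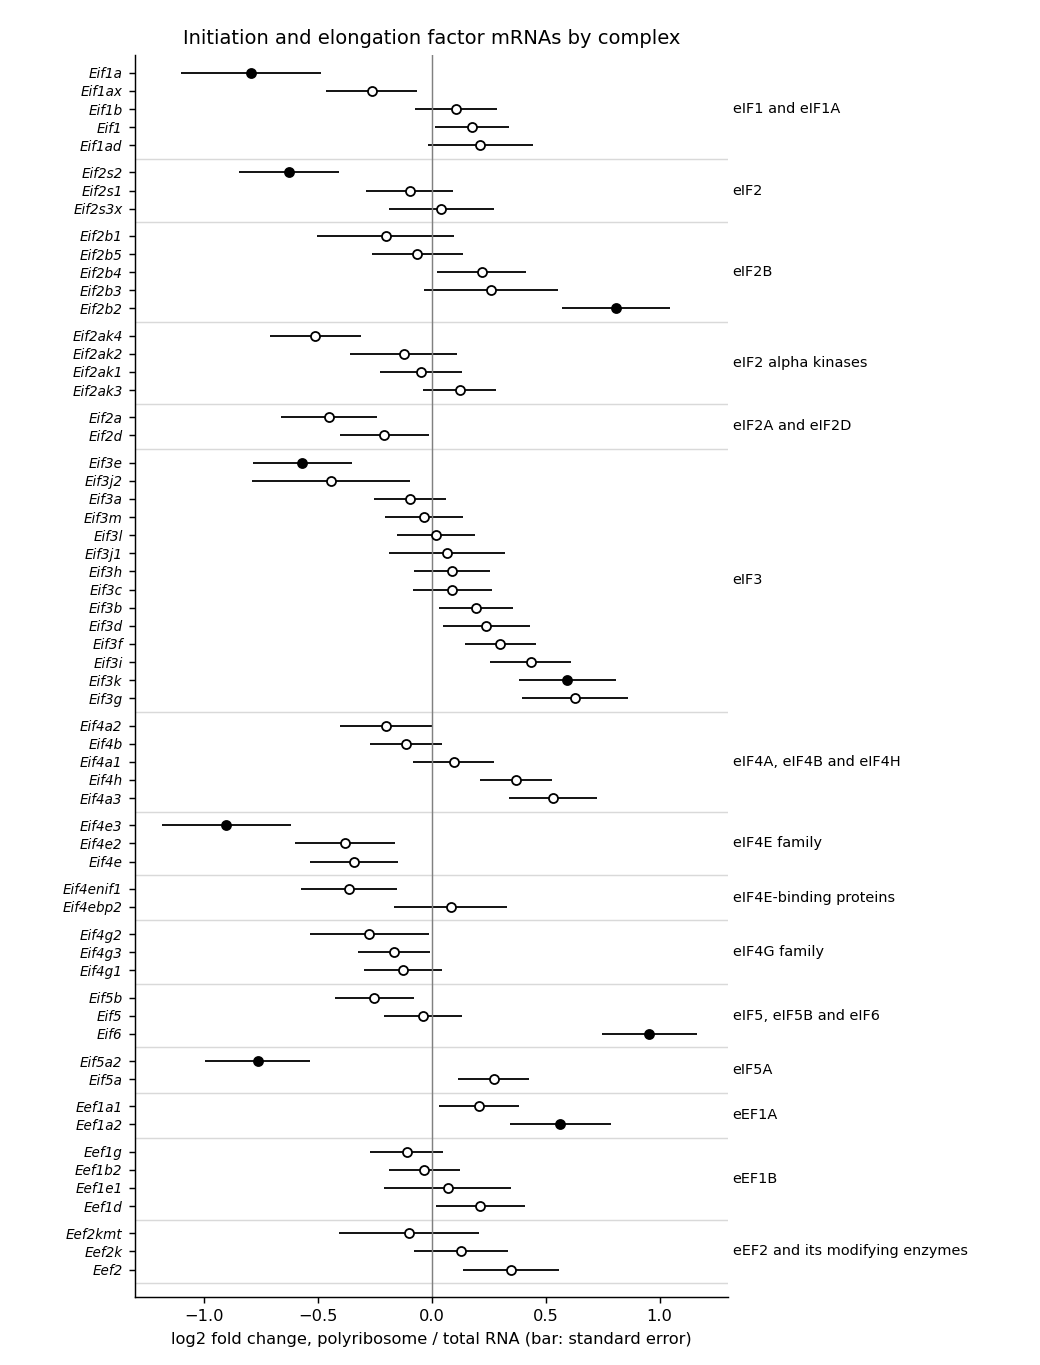
Log2 fold change of polyribosome over total RNA for the 60 tested members, grouped by complex, with bars for the standard error of edgeR's fit (n = 3 libraries a group). Filled points passed an adjusted p of 0.01 in the fit with the preparation as a block, and most points lie within 0.5 of zero with both directions in most complexes.

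The largest difference among the members was that of Eif6, which encodes a factor that binds the large ribosomal subunit, keeps it from joining the small subunit too early and serves its maturation. Eif6 stood at 25.6, 22.3 and 31.7 CPM in polyribosome replicates 1 to 3 and at 13.4, 14.4 and 12.5 CPM in total replicates 1 to 3. Every polyribosome library was above every total library, and the gap in CPM was widest in preparation 3. The log2 fold change was 0.95 (SE 0.21), with an adjusted p of 0.0109 in edgeR's test, just outside the threshold. With the block it was 0.90 (SE 0.18, adjusted p 2.6e-05), and over 17 alternatives the adjusted p ranged from 2.6e-05 to 0.0685, with 8 of them under the threshold. It was called in each fit with the block, also when each preparation was left out in turn. Of its companions at subunit joining, Eif5, the GTPase activator of eIF2, had a log2 fold change of -0.04 (SE 0.17). Eif5b, the GTPase that joins the subunits, stood at 39.2, 35.8 and 33.6 CPM against 40.0, 47.9 and 41.2 CPM. Its groups did not overlap, with the polyribosome libraries lower and a log2 fold change of -0.25 (SE 0.17, adjusted p 0.335).

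Of the factors that choose the start codon, Eif1 had a log2 fold change of 0.18 (SE 0.16) and its paralogue Eif1b one of 0.11 (SE 0.18). The related Eif1ad, at 0.21 (SE 0.23), and Eif1ax, which encodes eIF1A on the X chromosome, at -0.26 (SE 0.20), also passed in neither fit. Eif1a, which encodes a form of eIF1A, stood at 7.58, 8.13 and 3.71 CPM against 12.9, 12.7 and 5.75 CPM in total RNA. Both libraries of preparation 3 were low, with 18 counts on polyribosomes and 6 in total RNA. Within each preparation the polyribosome library was the lower. The log2 fold change was -0.79 (SE 0.31, adjusted p 0.0903) and, with the block, -0.70 (SE 0.23, adjusted p 0.00937). Over the alternatives its adjusted p ranged from 0.00549 to 0.337. Eif1a and Eif1ax are close copies, as are Eif3j1 and Eif3j2 and the X- and Y-linked genes below, and reads shared between such copies make the values of each less certain.

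eIF2 carries the initiator tRNA as a complex of alpha, beta and gamma subunits. The beta subunit gene Eif2s2 stood at 20.0, 16.1 and 11.5 CPM on polyribosomes and 23.3, 24.1 and 28.8 CPM in total RNA, with no overlap between the groups and the widest gap in preparation 3. Its log2 fold change was -0.62 (SE 0.22, adjusted p 0.0650), and -0.56 (SE 0.17, adjusted p 0.00603) with the block. In preparations 1 and 2 alone the value with the block was -0.39 (adjusted p 0.0541), and over the alternatives the adjusted p ran from 0.00354 to 0.417. This gene overlaps another gene of the table, so its reads are less certain. The alpha subunit gene Eif2s1, the target of the stress kinases, had a log2 fold change of -0.10 (SE 0.19).

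The X-linked gamma subunit gene Eif2s3x stood at 57.4, 61.8 and 37.3 CPM on polyribosomes and 57.4, 57.6 and 31.6 CPM in total RNA. The 4 libraries of preparations 1 and 2 lay between 57.4 and 61.8 CPM and those of preparation 3 at 31.6 and 37.3 CPM, so the preparations differed far more than the groups, whose log2 fold change was 0.04 (SE 0.23). Its Y-linked copy Eif2s3y, at 11.3 CPM on polyribosomes and 24.9 CPM in total RNA of preparation 3, was listed at 0 elsewhere. A count of 0 allows up to 3 counts, which corresponds to 0.408 and 0.438 CPM of the total counts in polyribosome replicates 1 and 2 and to 0.803 and 1.03 CPM in total replicates 1 and 2. In preparation 3 the ratio of polyribosome to total RNA was 0.454 for Eif2s3y, with an exact binomial interval of 0.280 to 0.755 (95%) that covers counting error between a single pair of libraries. Eif2s3y did not pass the filter and was left out of the tests and of the paralogue ratios.

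**Figure D3:**
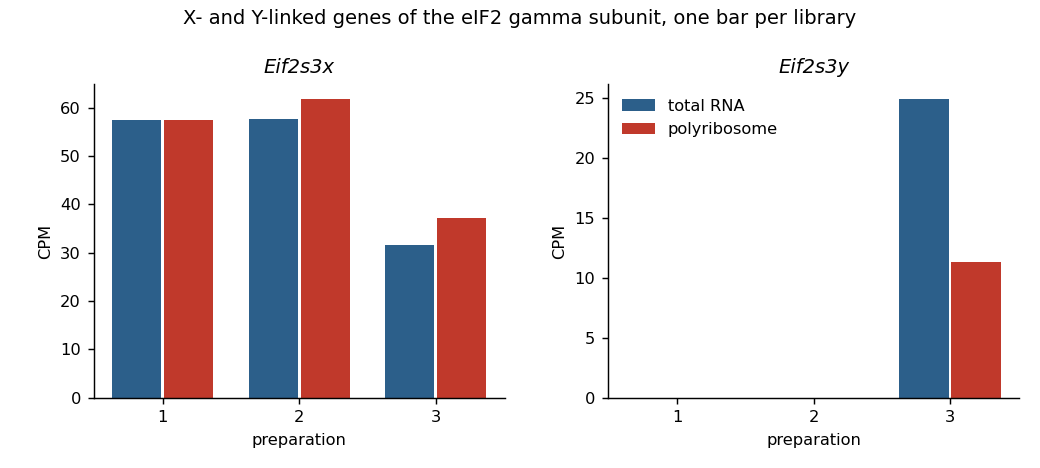
CPM of Eif2s3x and Eif2s3y in each of the 6 libraries, by preparation and group, with axes from 0. Eif2s3y has bars only in preparation 3, the preparation in which Eif2s3x is lowest, at 31.6 CPM in total RNA and 37.3 CPM on polyribosomes.

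eIF2B, the exchange factor that recharges eIF2 with GTP, had 5 members tested, of which 3 were positive, with a median log2 fold change of 0.22, which became -0.093 with an offset for the GC content and length of the transcripts. The beta subunit gene Eif2b2 stood out. It had 11.4, 12.2 and 11.5 CPM on polyribosomes and 6.21, 6.36 and 8.63 CPM in total RNA, without overlap. The total RNA values rest on only 25, 19 and 9 counts. The log2 fold change was 0.81 (SE 0.24, adjusted p 0.0340), and 0.81 (SE 0.24, adjusted p 0.00380) with the block, with a range of the adjusted p over the alternatives of 0.00168 to 0.186. The lowest of the complex was Eif2b1, the alpha subunit gene, at -0.20 (SE 0.30). The genes of the eIF2 alpha kinases, which inhibit eIF2B by phosphorylating eIF2, did not pass in either fit. The amino acid sensor GCN2 (Eif2ak4) was the lowest, at 16.1, 13.4 and 13.8 CPM on polyribosomes and 22.1, 17.1 and 24.0 CPM in total RNA. Its groups did not overlap, and its log2 fold change was -0.51 (SE 0.20, adjusted p 0.0931, and 0.0212 with the block). The heme-regulated kinase (Eif2ak1) had a log2 fold change of -0.05 (SE 0.18), the double-stranded RNA sensor PKR (Eif2ak2) one of -0.12 (SE 0.23), and the endoplasmic reticulum kinase PERK (Eif2ak3) one of 0.12 (SE 0.16). Eif2a and Eif2d, which encode factors able to deliver initiator tRNA without eIF2, were both negative, with a median of -0.33, and neither passed.

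eIF3, the large scaffold on the small ribosomal subunit, was represented by 14 genes, all tested, of which 10 had positive log2 fold changes, with a median of 0.09. At 5 of the 14 all polyribosome libraries stood above all total libraries (Eif3b, Eif3f, Eif3g, Eif3i and Eif3k), against 17.4% of all genes. None of the 14 passed the test without the block. Eif3k stood at 31.4, 32.7 and 48.4 CPM on polyribosomes and 24.1, 27.5 and 21.1 CPM in total RNA. The difference was widest in preparation 3. Its log2 fold change was 0.59 (SE 0.21, adjusted p 0.0692), and 0.50 (SE 0.16, adjusted p 0.00749) with the block. In preparations 1 and 2 alone the value with the block was 0.31 (adjusted p 0.101), and the adjusted p over the alternatives ran from 0.00749 to 0.418. The highest value of the complex was that of Eif3g, at 17.9, 17.5 and 26.6 CPM against 11.7, 13.4 and 16.3 CPM, with a log2 fold change of 0.63 (SE 0.23, adjusted p 0.0757, and 0.0136 with the block).

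Eif3e, which encodes another subunit, lay at the other end of the complex. It stood at 23.8, 19.6 and 17.7 CPM on polyribosomes and 36.3, 30.8 and 19.2 CPM in total RNA, lower on polyribosomes within every preparation but with overlapping groups. The log2 fold change was -0.57 (SE 0.22, adjusted p 0.0855), and -0.54 (SE 0.16, adjusted p 0.00415) with the block, with a range of the adjusted p over the alternatives of 0.000233 to 0.405. The core subunit genes Eif3a, Eif3b and Eif3c gave no call in either fit.

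The eIF4A helicases unwind the 5′ leader, helped by eIF4B and eIF4H. Of these 5 genes 3 were positive, with a median of 0.10. Eif4h stood at 229.8, 223 and 239 CPM against 179, 188 and 167 CPM and Eif4a3, whose product is best known from the exon junction complex, at 29.4, 25.8 and 34.8 CPM against 22.6, 18.8 and 20.1 CPM. Neither gene's groups overlapped. The log2 fold changes were 0.37 (SE 0.16) for Eif4h and 0.53 (SE 0.19) for Eif4a3, with adjusted p of 0.0147 and 0.0120 with the block, outside the threshold. Eif4a1 had a log2 fold change of 0.10 (SE 0.18) and Eif4a2, the helicase gene most typical of brain, one of -0.20 (SE 0.20). Eif4a2 also overlaps another gene of the table.

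In the cap-binding family all 3 tested genes had negative log2 fold changes, with a median of -0.38, and Eif4e1b had no count in any library. Eif4e, the cap-binding protein gene, stood at 50.2, 47.6 and 38.3 CPM against 56.4, 69.7 and 43.2 CPM, with overlapping groups and a log2 fold change of -0.34 (SE 0.19, adjusted p 0.236, and 0.0571 with the block). Eif4e2, whose product binds the cap without eIF4G, gave -0.38 (SE 0.22, adjusted p 0.0843 with the block). Eif4e3 stood at 6.09, 4.52 and 3.29 CPM against 9.68, 8.04 and 8.63 CPM. All polyribosome libraries lay below all total libraries. Its log2 fold change was -0.90 (SE 0.28, adjusted p 0.0446), and -0.83 (SE 0.26, adjusted p 0.00749) with the block. Over the alternatives its adjusted p ranged from 0.00749 to 0.215, and the block over all 3 preparations was the only one of these to call it at 0.01. Eif4e3 overlaps another gene of the table.

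Among the eIF4E-binding proteins, which compete with eIF4G for eIF4E, Eif4ebp2, the form most abundant in brain, had a log2 fold change of 0.08 (SE 0.25), and Eif4enif1, the eIF4E transporter, one of -0.36 (SE 0.21). Eif4ebp1 and Eif4ebp3 were below the filter. The eIF4G scaffold genes were all negative without a call in either fit. Eif4g1 had a log2 fold change of -0.12 (SE 0.17), its paralogue Eif4g3 one of -0.16 (SE 0.16), and Eif4g2, whose product lacks the eIF4E site, one of -0.27 (SE 0.26). Eif4g2 stood at 557, 443 and 247 CPM against 608, 535 and 359.6 CPM, and in both groups preparation 3 was the lowest.

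The eIF5A genes, whose hypusine-bearing products help the ribosome at difficult peptide bonds, had log2 fold changes of opposite sign. Eif5a2 stood at 26.8, 31.3 and 16.1 CPM on polyribosomes and 36.3, 46.9 and 45.1 CPM in total RNA, without overlap. Its log2 fold change was -0.76 (SE 0.23, adjusted p 0.0387), and -0.71 (SE 0.15, adjusted p 8.5e-05) with the block, which also called it when each preparation was left out in turn. The adjusted p ranged from 8.5e-05 to 0.451 over the alternatives. Eif5a, the widely expressed form, stood at 110.2, 114 and 123 CPM against 96.3, 101 and 89.2 CPM, without overlap in the other direction, and its log2 fold change of 0.27 (SE 0.16) had an adjusted p of 0.244.

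**Figure D4:**
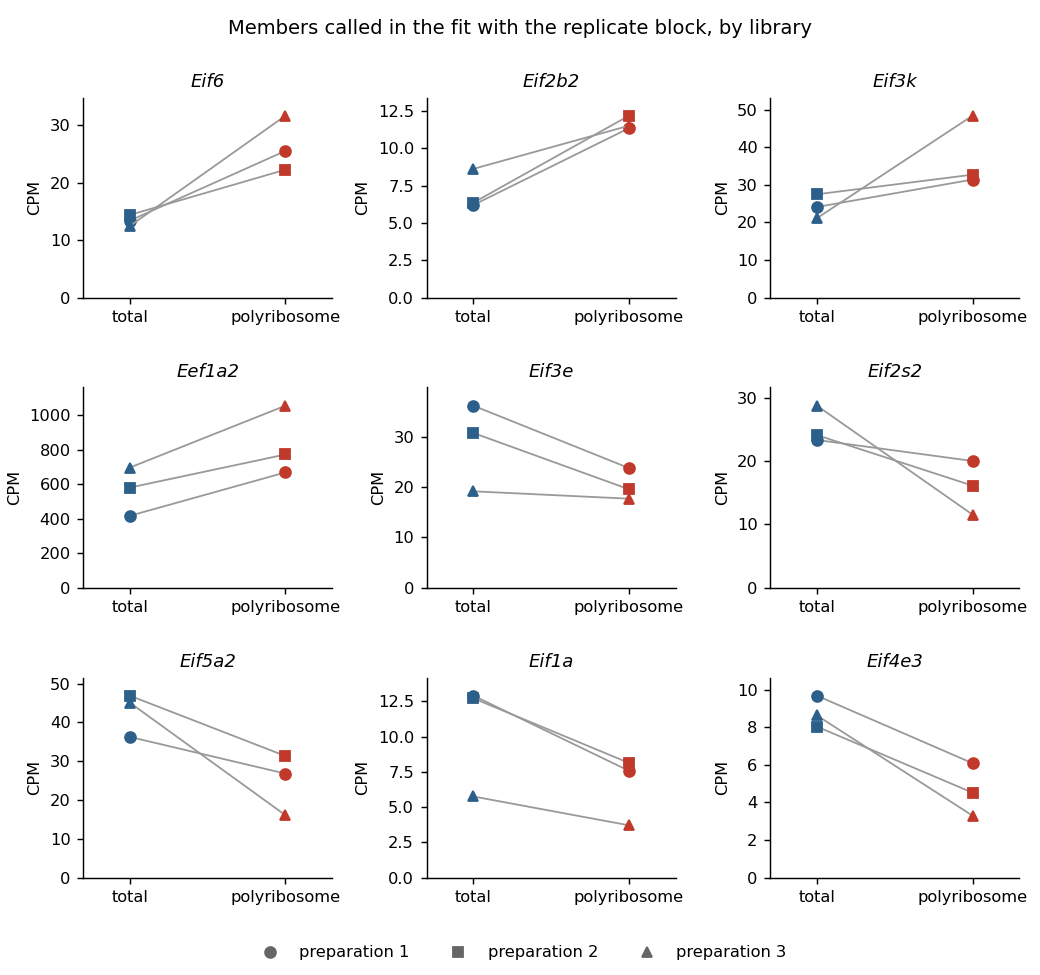
CPM of the 9 members called in the fit with the preparation as a block, in each total RNA library (left) and polyribosome library (right) of preparations 1 to 3, joined within a preparation, with axes from 0. All 3 lines run in the same direction at each gene. The slope in CPM is steepest in preparation 3 for Eif6, Eef1a2, Eif3k, Eif4e3, Eif2s2 and Eif5a2.

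Of the elongation factors, eEF1A brings aminoacyl-tRNA to the ribosome. Eef1a2, the form of neurons and muscle, stood at 668, 772 and 1055 CPM on polyribosomes and 416, 580.1 and 696 CPM in total RNA. The groups overlapped, while within each preparation the polyribosome library was the higher. The log2 fold change was 0.56 (SE 0.22, adjusted p 0.0921), and 0.56 (SE 0.12, adjusted p 0.000142) with the block, with a range over the alternatives of 2.6e-07 to 0.598. Eef1a1, the widely expressed form, stood at 1797, 1822 and 2262 CPM and 1651, 1621 and 1821 CPM, with a log2 fold change of 0.21 (SE 0.18, adjusted p 0.446). The eEF1B exchange factor genes were near zero, with a median of 0.02 (-0.014 with the GC and length offset) and values from -0.11 (SE 0.16) for Eef1g to 0.21 (SE 0.20) for Eef1d. Eef2, which encodes the translocase, stood at 1703, 1697 and 2506 CPM against 1376, 1352 and 1917 CPM, with both libraries of preparation 3 the highest of their group. Its log2 fold change was 0.35 (SE 0.21, adjusted p 0.273, and 0.0261 with the block). The gene of its inhibitory kinase, Eef2k, a calcium- and calmodulin-dependent enzyme, had a log2 fold change of 0.13 (SE 0.21), and the methyltransferase gene Eef2kmt one of -0.10 (SE 0.31).

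Ratios of paralogues within a library do not depend on the scaling between libraries. For 9 pairs the log2 ratios were compared with an exact two-sided permutation test, for which 3 libraries against 3 cannot give a p below 0.1, and the smallest Benjamini-Hochberg adjusted value over the 9 pairs was 0.45. This test takes the libraries as unpaired. A sign-flip test that keeps the pairing cannot give a p below 0.25 with 3 preparations. It gave 0.25 for Eif5a2 to Eif5a, Eif4a2 to Eif4a1, Eef1a2 to Eef1a1 and Eif4a3 to Eif4a1, and more for the other pairs. The ratio of Eif5a2 to Eif5a was -2.04, -1.87 and -2.93 on polyribosomes and -1.41, -1.11 and -0.98 in total RNA. The polyribosome libraries were lower without overlap, by 1.11 on average (exact permutation p = 0.1). The ratio of Eif4a2 to Eif4a1 was 0.17, 0.28 and 0.29 on polyribosomes and 0.59, 0.65 and 0.30 in total RNA. Again the groups did not overlap, with a mean difference of -0.26 (exact permutation p = 0.1), but preparation 3 differed by less than 0.01, and with a prior count of 2 in place of 0.5 the groups overlapped (exact permutation p = 0.2). The ratio of Eef1a2 to Eef1a1 was higher on polyribosomes in all 3 preparations, by 0.56, 0.24 and 0.29, and that of Eif4a3 to Eif4a1 by 0.36, 0.39 and 0.44, in both cases with overlapping groups (exact permutation p = 0.2 and 0.3). With the GC and length offset the fitted log2 fold change of Eef1a2 was below that of Eef1a1, with a difference of -0.12, and the differences were -0.24 for Eif5a2 and Eif5a, -0.067 for Eif4a2 and Eif4a1 and 0.13 for Eif4a3 and Eif4a1. For Eif1b to Eif1, Eif4e2 to Eif4e, Eif4g2 to Eif4g1 and Eif4g3 to Eif4g1, the mean differences were -0.06, -0.02, -0.18 and -0.04, with overlapping groups. That of Eif4ebp2 to Eif4ebp1 was -0.90 but -0.23 with a prior count of 2, since Eif4ebp1 is below the filter and at 0 in total replicate 3, and no direction can be read from it.

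The log2 fold changes of the members followed the base composition of their transcripts. Across the 60 members Pearson's r with GC content was 0.67 (Spearman's rho 0.68) and with transcript length -0.37 (rho -0.40). Over all genes with a value it was 0.53 with GC content and -0.28 with length. These are descriptions across genes that share 6 libraries. When all genes were ranked by GC content into 5 bins, the lowest bin, up to 45.1%, held 20 members, of which 3 were positive, and the median of all its genes was -0.37. The bin from 52.6% to 56.3% held 20 members, of which 15 were positive, and the median of its genes was 0.16. The bin from 45.1% to 49.0% went the other way, with 3 of 4 members positive and a member median of 0.15 against -0.18 for all its genes. In the bin from 49.0% to 52.6%, 6 of 13 members were positive, with a member median of -0.05 against -0.02. The members called higher with the block had GC contents of 54.1% to 60.6%, and those called lower of 38.8% (Eif5a2) to at most 45.1%. With an offset for GC content and length together with the block, Eif6 alone of the 60 was called, with a log2 fold change of 0.64 (adjusted p 0.00525), where 7.78% of all genes were called higher and 6.45% lower. There the value of Eef1a2 was 0.15, that of Eif3k 0.19, that of Eif2s2 -0.22, that of Eif5a2 -0.20 and that of Eif3e -0.26. Eif2b2 (0.56), Eif4e3 (-0.60) and Eif1a (-0.40) had adjusted p of 0.0714, 0.0770 and 0.176.

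**Figure D5:**
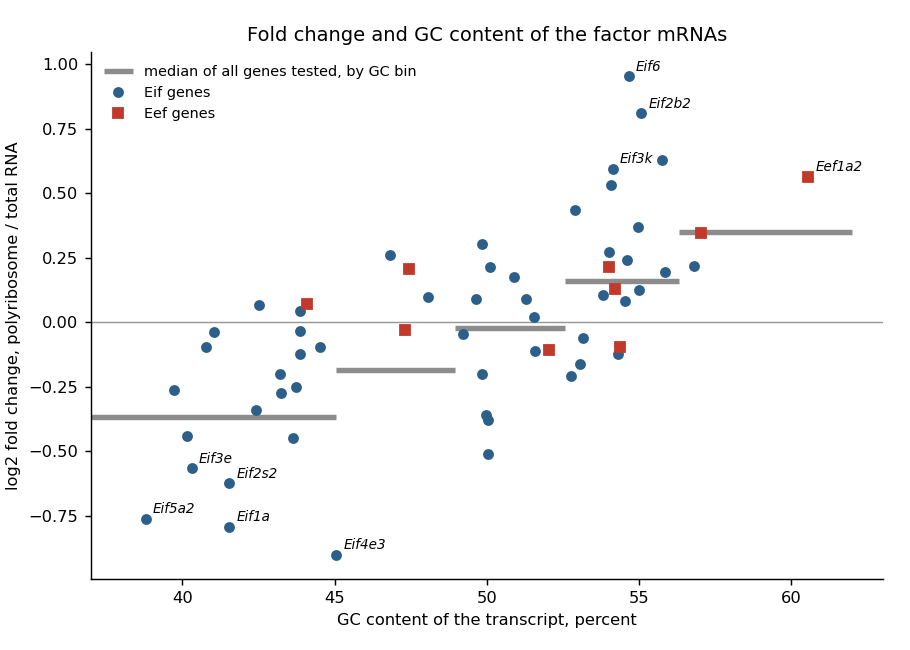
Log2 fold change (polyribosome over total RNA) against the GC content of the transcript for the 60 tested members, Eif genes as circles and Eef genes as squares, with grey bars for the median of all genes tested in each of 5 bins of GC content, the outer bars trimmed to the axis. The members tend to rise with GC content as the grey bars do, except in the bin from 45.1% to 49.0%, where 3 of 4 members are positive. The 9 named genes are those called in the fit with the preparation as a block.

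The list of known TOP mRNAs held 9 members (Eef1a1, Eef1b2, Eef1d, Eef1g, Eef2, Eif3e, Eif3f, Eif3h and Eif4b). Of these 5 were positive and 4 negative, with a median log2 fold change of 0.09 against 0.00 for all genes. With the offset for GC content and length it became -0.020, and in preparations 1 and 2 alone it was -0.018. None, 0 of 9, were called by edgeR without the block. At an unadjusted p under 0.05 none was higher and 1, Eif3e, was lower, against 15.4% and 17.1% of all genes, and Eif3e was also the only call with the block, against 11.8% higher and 13.2% lower of all genes. DESeq2 called none of the 9. Eif3f, whose start is pyrimidine throughout the capitals above, stood at 94.4, 90.8 and 105 CPM against 79.7, 75.7 and 80.6 CPM, without overlap, with a log2 fold change of 0.30 (SE 0.16, adjusted p 0.197). A list of other translation genes (34 entries, of which 31 were tested) had 11 positive and 20 negative log2 fold changes, with a median of -0.13 (-0.0078 with the GC and length offset). It held poly(A)-binding proteins, accessory initiation factors, termination and recycling factors, modifying enzymes and mitochondrial factors. Without the block 1 of the 31 was called, where 0.71% of all genes were called higher and 2.36% lower. Mtif2, the mitochondrial initiation factor, was called lower, with 7.71, 7.83 and 7.41 CPM against 20.9, 14.1 and 12.5 CPM, no overlap and a log2 fold change of -1.12 (SE 0.23, adjusted p 0.00853). The call was lost with DESeq2 (-1.08, adjusted p 0.0116), with the GC and length offset (-0.81, adjusted p 0.0349) and when any library other than total replicate 3 was left out, with adjusted p from 0.0121 to 0.103. With the block it was also lost without preparation 1 (-0.82, adjusted p 0.0340). Without total replicate 1 the value was -0.83 and in the other 4 of these fits it lay between -1.11 and -1.23. With the block 1 of the 31 was called higher and 2 lower, where this fit called 11.8% and 13.2% of all genes. Tufm, the mitochondrial counterpart of eEF1A, was called higher (0.55) and Pabpc1, the main poly(A)-binding protein, lower (-0.41), beside Mtif2. With the offset and the block Mtif2 was called lower (-0.83, adjusted p 0.00169), where this fit called 6.45% of all genes lower. Neither Tufm nor Pabpc1 was called there, at 0.27 (adjusted p 0.227) for Tufm and -0.26 (adjusted p 0.0860) for Pabpc1. In preparations 1 and 2 with the block Tufm was at 0.44 (adjusted p 0.0251). Without preparation 1, Tufm was at 0.43 (adjusted p 0.173) and Pabpc1 at -0.49 (adjusted p 0.0236), and without preparation 2 Pabpc1 was at -0.40 (adjusted p 0.158).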

How the data were processed

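Per the labels and the study's methods, the authors depleted ribosomal RNA, sequenced paired-end libraries, mapped the reads with STAR (2.5.2b in the submitters' processing notes) to GRCm38 and assigned them to genes of the Gencode vM6 basic annotation. They deposited whole-number counts per protein-coding gene, without normalization, beside their own DESeq2 columns (means, fold changes, p-values), which were not used. Use of the strand in counting is not given in the sources used here, so the 15 members that overlap another gene are uncertain.

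Here edgeR 4.0.16 in R 4.3.3 was run with TMM scaling, filterByExpr and its quasi-likelihood test of a model holding only the group, with Benjamini-Hochberg adjustment over 12255 genes and a threshold of 0.01. The SE is the log2 fold change divided by the square root of F. DESeq2 1.42.0, other scalings and filters, a GC and length offset (Gencode vM21 transcripts, 99.6% of genes), leave-one-out and the replicate block were alternatives. The edgeR fits without and with the block and DESeq2 were tested on simulated data, the other alternatives were not. The simulated libraries were drawn independently, without any effect of preparation or GC content. They therefore do not show how the block performs on paired libraries like these. Labels with a shared prefix and the aliquots of the methods pair the libraries by number, and across genes the paired deviations from the group mean had correlations of 0.37, 0.26 and 0.38. Unmatched libraries gave -0.35 to 0.11, and those that crossed preparations 1 and 2 gave 0.11 and 0.033. The p-values without the block rest on the spread between libraries of a group, which are taken as unpaired. Those with the block rest on the spread of the differences within preparations. Intervals and floors cover counting error only.

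Members and lists were chosen with earlier results of these data known. Named were, by rule, members past the threshold, the ends of each complex of 3 or more, paralogue pairs, kinases, Eef2, Eef2k, Eif6, Eif5, Eif5b, and the 8 further smallest p with the block. From the list of other translation genes, those past the threshold and the 5 smallest p were eligible. Members outside the rule are named only where they complete a count, after their values were seen. Eef2kmt was placed with eEF2 after the gene names were seen. Eif2s3y, at 0 in 4 libraries, was left out of the ratios.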

Additional observations from a re-analysis of the deposited data

How the results depend on the processing

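The number of genes called over the whole table was 376 and became 693 with DESeq2, 1042 with every gene of at least 1 count, 1884 at an adjusted p of 0.05, 133 with an offset for GC content and length, 3063 with the replicate block, 1738 with offset and block together, and 1111 in preparations 1 and 2 only (3072 with the block, against 1200 in preparations 1 and 3 and 1537 in preparations 2 and 3). Leaving out each library gave 22 (without total replicate 2) to 258 genes, 57 without polyribosome replicate 2 and 66 without total replicate 1. Members called higher were 0, and 1 (Eif6) with DESeq2, with the lower count filter, with offset and block, and in preparations 1 and 2 only, 4 with the replicate block, and 2 (Eif6 and Eif2b2) at an adjusted p of 0.05. Members called lower were 0, and 5 with the replicate block and 2 (Eif4e3 and Eif5a2) at 0.05. With the block, preparations 1 and 2 gave 4 higher and 4 lower, preparations 1 and 3 gave 1 and 1, and preparations 2 and 3 gave 1 and 2. No member was called when 1 library was left out. The replicate block changed no call of a member other than the 9 named in the report. The members' median was -0.12 with total counts only, 0.047 with offset and block, and -0.029 to 0.023 with a library left out.

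Medians of complexes also changed sign with the GC and length offset, to 0.31 for eIF2, 0.026 for the eIF2 alpha kinases and 0.37 for eIF5, eIF5B and eIF6, beside those given in the report. Differences between the fitted log2 fold changes of paralogues under the offset, an alternative chosen after seeing the data, changed sign to 0.27 for Eif4g2 and Eif4g1 and 0.019 for Eif4g3 and Eif4g1. Small log2 fold changes changed sign. With the GC and length offset they became Eef1d -0.020, Eif2ak3 -0.042, Eif4a2 0.082, Eif4g2 0.10, Eif5b 0.17, Eif4ebp2 -0.014, Eif5a -0.0031, Eif1b -0.18, Eif2ak1 0.095, Eif2ak2 0.23, Eif5 0.37, Eif1ax 0.23 and Abce1 0.0034, and with the offset and the block Eef1d -0.060, Eif2ak3 -0.033, Eif4a2 0.076, Eif4g2 0.090, Eif5b 0.17, Eif5a -0.0031, Eif1b -0.14, Eif2ak1 0.11, Eif2ak2 0.26, Eif5 0.37, Eif1ax 0.24 and Abce1 0.020. With total counts only they became Eif2s3x -0.059, Eif4a1 -0.0096, Eif4ebp2 -0.023 and Eif1b -0.0021. In preparations 1 and 2 only they became Eif2ak1 0.0096 and Eif2ak2 0.066 (Eif2ak1 0.00029 and Eif2ak2 0.081 with the block), and the ratios Eif4ebp2/Eif4ebp1 0.49 and Eif4e2/Eif4e 0.0033. With the block, preparations 1 and 3 gave Eif5 0.045, and preparations 2 and 3 gave Eef2kmt 0.0025, Eif4ebp2 -0.17 and Eif2ak1 0.023. The values that changed sign with a library left out ranged as follows, the ratio Eif4g2/Eif4g1 (-0.42 to 0.039), the ratio Eif4g3/Eif4g1 (-0.15 to 0.053), the ratio Eif4ebp2/Eif4ebp1 (-1.51 to 0.017), the ratio Eif4e2/Eif4e (-0.11 to 0.12), Eef2kmt (-0.21 to 0.097), Eif2s3x (-0.14 to 0.21), Eif2b1 (-0.36 to 0.043), Eif4a1 (-0.029 to 0.24), Eif4ebp2 (-0.21 to 0.28), Eif2ak1 (-0.18 to 0.062), Eif2ak2 (-0.35 to 0.0045), Eef2k (-0.0077 to 0.31), Eif5 (-0.13 to 0.057). Where the offset or fewer samples changed a value, that is part of the alternative's construction, and for the others the cause was not tested. No member called with the block changed sign under any alternative run. The fits on 2 preparations were chosen after seeing the data. Depth of the shallowest library, total RNA replicate 3, limits the weakest members, and 52 of the 64 had at least 10 counts in every library. Of the members called with the block, Eif2b2 had 9 counts and Eif1a 6 in total replicate 3. Eif4e3 stood there at the same 8.63 CPM as Eif2b2.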
